A study of Mus musculus with 33 samples.

Results

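The comparison is between 2 ZMYND8 knockout clones of CH12, KO2 and KO1. CH12 is a line of mouse B lymphoma cells with surface IgM, some of which switch to IgA on stimulation. Its members are the 12 knockout libraries of 33 samples in the series, chosen by the clone named in their labels. Each clone was cultured for 48 h either unactivated or activated, and each of these 4 groups had 3 libraries, which the labels call biological repeats. The stimulus used for activation is not named in the labels, nor do they say how the clones were made, so how the ZMYND8 gene of KO2 differs from that of KO1 is not known here. A WT clone and parental WT cells, both with ZMYND8 intact by their labels, gave 3 libraries each in the same states and are used only to place the 2 knockout clones. Total RNA was sequenced after removal of ribosomal RNA. Because each knockout line is 1 clone, a difference between them cannot be told apart from anything else in which the clones differ, and the 3 libraries measure the spread between cultures of a clone, not between clones.

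ZMYND8 is a chromatin protein that reads histone marks through PHD, bromo and PWWP domains, and it is known to bind enhancers and promoters and to restrain transcription from active enhancers. In B cells it is known to bind the Igh super-enhancer downstream of the constant genes, the 3′ regulatory region, which drives transcription of the heavy chain locus and class switching. Clones grown from single cells of one tumour line can carry their own inherited expression states, so a comparison of knockout clones shows which differences are not shared by cells that lack the same protein.

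The authors deposited estimated counts for 171152 targets, made up of 121400 annotated transcripts, 49745 genomic regions between 251 and 20296 bases long, and 7 Igh elements. Levels are given as CPM, a target's counts relative to the size of its library after TMM scaling. The knockout libraries held between 29.39 and 33.9 M estimated counts, of which the regions took between 3.778% and 5.04%. A gene value is the sum of the regions that lie wholly inside 1 annotated gene, and it reads RNA from part of a gene, not its mRNA. A target was called when the adjusted p of edgeR's quasi-likelihood test was under 0.05, and log2 differences are KO2 over KO1 with their standard error. The Zmynd8 gene itself, whose 6 regions stand in for the targeted gene, held 2.63, 1.68 and 1.71 CPM in unactivated KO2, against 1.63, 1.67 and 2.1 CPM in unactivated KO1. In activated cells it held 2.82, 4.25 and 2.87 CPM in KO2, against 3.04, 4.29 and 3.64 CPM in KO1. The clones overlapped in both states (log2 differences 0.16 ± 0.24 and -0.14 ± 0.22). WT clone and parental WT cells averaged 1.64 and 1.42 CPM unactivated and 2.59 and 2.29 CPM activated. These regions show RNA from the locus in every line and do not check the knockout.

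The cells carried RNA of the B cell markers that had regions. Summed over the marker list fixed for B cells, of which 5 of 8 genes had regions, the level ranged over 34.8 to 46.6 CPM in unactivated KO2 and 32.4 to 36.1 CPM in unactivated KO1, and over 47.5 to 61.6 CPM in activated KO2 and 45.6 to 62.3 CPM in activated KO1. T cell markers, with 8 of 15 genes covered, summed to 1.19 to 1.67 CPM in KO2 and 1.4 to 1.95 CPM in KO1 unactivated, and to 1.56 to 1.97 CPM in KO2 and 1.63 to 1.78 CPM in KO1 activated. Bcl11b in the T cell list and Col1a1 in the stromal list were at 0 in the knockout libraries, each the only covered gene of its list to be so. In the T cell list 3 genes and in the stromal list 1 gene had enough counts to be tested. Myeloid, natural killer and stromal lists stayed at or under 1.17, 0.305 and 1.31 CPM. Cd79b and Ms4a1 had no regions, so they were not checked. The part of these markers in the results was not tested.

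Among the knockout libraries, replicate 2 of unactivated KO1 stood apart. The root mean square log2 distance between libraries, over 23867 targets, was 0.566 to 0.65 within unactivated KO2 and 0.598 to 0.814 within unactivated KO1, where the distance was 0.598 without that library. Unactivated KO2 and KO1 libraries lay 0.577 to 0.799 apart, or 0.577 to 0.676 without it. In activated cells the distances were 0.581 to 0.593 within KO2, 0.547 to 0.597 within KO1 and 0.597 to 0.664 between the clones. The clones were thus little farther apart than the cultures of 1 clone. In a principal component analysis of the 12 libraries, the first component (37.6% of variance) separated activated from unactivated cells, the second (12.0%) separated replicate 2 of unactivated KO1 from the rest, and the third (9.18%) separated the clones. On the third component the 6 KO2 libraries lay between 14.8 and 36.2, and the 6 KO1 libraries between -35.0 and -9.3. On the fourth (8.01%), replicate 1 was the lowest and replicate 3 the highest library of each clone in each state.

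**Figure D1:**
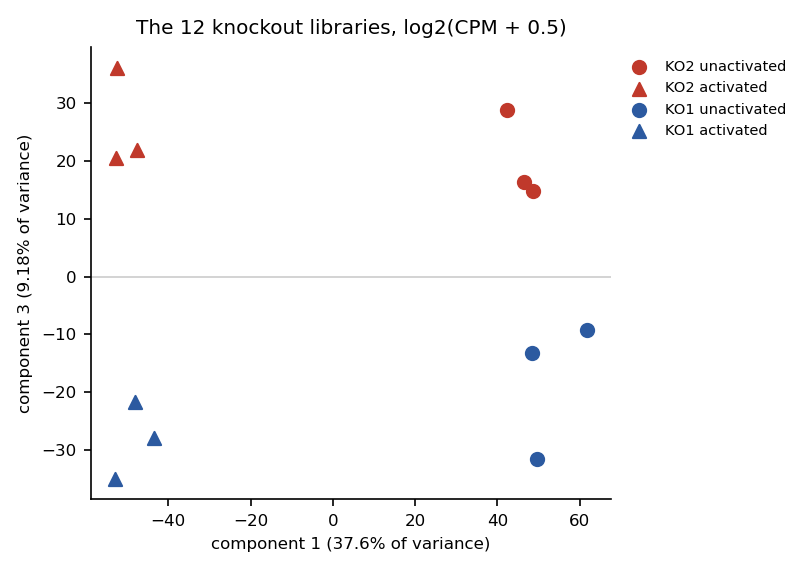
The first (x axis) and the third (y axis) principal component of the 12 knockout libraries, from log2(CPM + 0.5). KO2 libraries lie between 14.8 and 36.2 on the third component and KO1 libraries between -35.0 and -9.3, in unactivated (circles) and activated (triangles) cells alike.

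Of 49806 transcripts tested, a small share differed between the clones in each state, in near equal numbers either way, and many of those that did differed by a large factor. In unactivated cells 102 transcripts were higher and 130 lower in KO2 than in KO1, together 232 (0.466% of those tested). In activated cells 134 were higher and 139 lower, together 273 (0.548%). The median absolute log2 difference of the called transcripts was 1.65 unactivated and 1.34 activated. A difference of over 4-fold was found for 103 of the 232 and for 90 of the 273, and 75 and 106 differed by less than 2-fold. In bulk RNA, fewer cells with a transcript and less of it per cell cannot be told apart. The transcripts carry identifiers only and no gene names here. Estimated counts divide reads that fit several transcripts, so the value of a transcript that shares sequence with another is uncertain.

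Most transcripts that differed in 1 state differed the same way in the other, which came from other cultures. Of the 232 called in unactivated cells, 222 (95.7%) had the same sign in activated cells, 149 (64.2%) were also called there, and 0 were called in the opposite direction. Of the 273 called in activated cells, 262 (96.0%) had the same sign in unactivated cells and 149 (54.6%) were called. The 149 transcripts called in both states split into 74 higher and 75 lower in KO2, with a median absolute log2 difference of 1.83, and 70 of them differed over 4-fold. The difference of the clone difference between the states was called for 4 transcripts (0.00803%), 3 with a higher and 1 with a lower log2 difference in activated cells. For this change 2067 were under an unadjusted p of 0.05, a share below 0.05 of the transcripts tested. DESeq2 called 168 transcripts for this change, and leaving out 1 knockout library gave 2 to 10 by edgeR, so the number whose difference changed with activation depends on the test. Averaged over both states, a contrast added after the data were examined, 560 transcripts were called (1.12%), 255 higher and 305 lower in KO2.

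**Figure D2:**
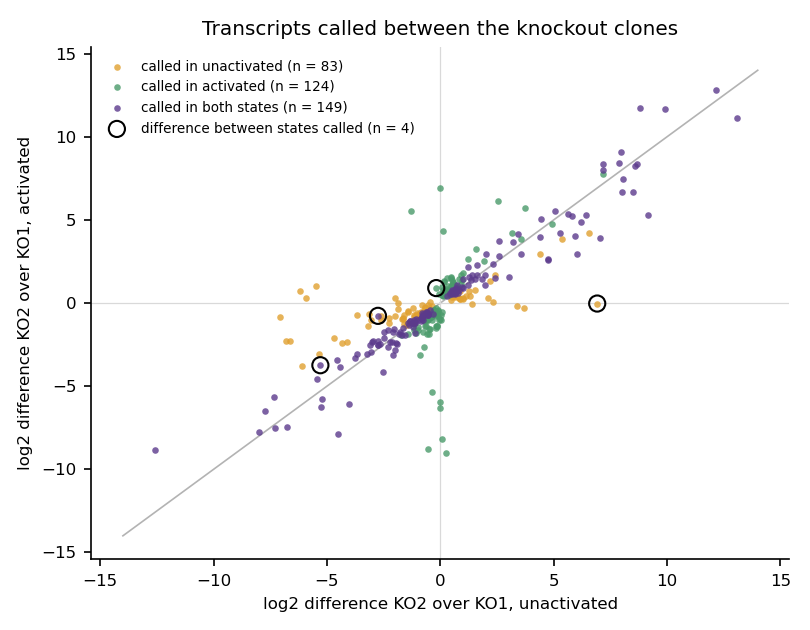
The log2 difference KO2 over KO1 of each transcript called between the clones, in unactivated cells (x axis) and in activated cells (y axis), coloured by the state in which it was called. The 149 transcripts called in both states lie in the 2 quadrants of equal sign, and circles mark the 4 transcripts whose difference itself changed with activation.

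Some transcripts were present in every culture of KO2 and at or near 0 in every culture of KO1. Present was set as at least 1 CPM in all 6 libraries of a clone, and absent as at most 3 counts in each. Among the 49806 transcripts tested, 10 were present in KO2 and absent in KO1, and 0 the other way round. The 0 depends on this cut. ENSMUST00000105720 and ENSMUST00000030032, given below and present in KO1, missed it through KO2 libraries with 0.114 to 0.136 CPM. The means of the 10 in KO2 ran from 1.36 to 43.5 CPM with a median of 9.25 CPM, and 9 of the 10 were called in both states. In parental WT cells 7 of the 10 were present and 1 was absent, and in the WT clone 3 were present and 5 were absent. The WT lines showed the same kind of pattern between themselves: 3 transcripts were present in parental WT and absent in the WT clone, and 0 the other way round. All 3 of these were also called between the knockout clones in both states, with KO2 having all 3 and KO1 lacking 2.

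Transcript ENSMUST00000060301 held 20.9, 15.9 and 17.8 CPM in unactivated KO2 and 25.5, 31.8 and 26.1 CPM in activated KO2. It was at 0 in all 6 KO1 libraries and in all 6 libraries of the WT clone, while parental WT cells averaged 24.6 ± 5.21 CPM unactivated and 26.9 ± 3.08 CPM activated (SD, n = 3 each). KO2 was therefore like parental WT, and KO1 like the WT clone, for this transcript (adjusted p = 9.16e-08 unactivated and 5.63e-08 activated, edgeR's quasi-likelihood test). ENSMUST00000168815 had the same layout, with 32.6, 38.6 and 30.6 CPM in unactivated KO2 and 47.6, 59.9 and 51.5 CPM in activated KO2, against 0 in 5 KO1 libraries and 0.0622 CPM in the sixth. Parental WT cells averaged 43.4 and 49.1 CPM, and the WT clone was at 0 in all but 1 library, which held 0.0291 CPM.

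The reverse case was ENSMUST00000105720, at or near 0 in KO2 with 0.114 CPM in 1 activated library. In KO1 it held 27.3, 26.9 and 19 CPM unactivated and 22.1, 16.2 and 23 CPM activated, and the WT lines ranged over 12.4 to 39.5 CPM (adjusted p = 2.38e-07 and 7.78e-07, edgeR's quasi-likelihood test). KO2 alone of the 4 lines was without it. ENSMUST00000030032 held 0.136, 0.0571 and 0 CPM in unactivated KO2 and 0.117, 0 and 0 CPM in activated KO2, against 15.6, 21 and 14.5 CPM and 9.49, 10.8 and 9.22 CPM in KO1. The WT clone averaged 2.34 and 0.811 CPM and parental WT cells 16.5 and 8.11 CPM, so the 2 WT lines also differed. No fold is given for these 4 transcripts since 1 clone was at or near 0.

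The clones also differed in abundant RNA. The most abundant transcript called higher in KO2 in both states held 10675.8, 11575.6 and 10886.9 CPM in unactivated KO2, against 7070.8, 7447.4 and 6550.6 CPM in unactivated KO1 (log2 difference 0.65 ± 0.08). Activated, it averaged 9982.7 CPM in KO2 and 5525.8 CPM in KO1 (0.85 ± 0.08). The most abundant transcript called lower in both states averaged 220.9 ± 7.88 CPM in KO2 and 330.6 ± 4.32 CPM in KO1 unactivated (SD, n = 3), and 135.8 ± 13.8 and 227.6 ± 4.69 CPM activated. Both were chosen after their values were seen, and for neither did the clones overlap in a state.

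The number called between the knockout clones was of the same order as that between the 2 lines with ZMYND8. Between WT clone and parental WT cells, 339 transcripts were called unactivated (0.681%; 87 higher and 252 lower in the WT clone) and 307 activated (0.616%; 80 higher and 227 lower). The split was uneven for the WT lines and near even for the knockout clones. Whether the numbers themselves differ was not tested.

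Regions are the second kind of target, and they can be placed on the genome. The promoters of 3 genes, shown because regions called between the clones overlap them, are given from RefSeq (GRCm38.p6; 300 bases, 250 before and 50 after the start of the gene), with the dinucleotide CG in capitals. The first is at chr16:94010405-94010704 on the plus strand and holds 3 CG, the second is at chr5:109796520-109796819 on the minus strand and holds 4, and the last is at chr6:136553841-136554140 on the plus strand and holds 5. Of 32817 such promoters, 76.7% hold at least 3, 68.6% at least 4 and 61.9% at least 5, with a median of 7.
2410003I16Rik: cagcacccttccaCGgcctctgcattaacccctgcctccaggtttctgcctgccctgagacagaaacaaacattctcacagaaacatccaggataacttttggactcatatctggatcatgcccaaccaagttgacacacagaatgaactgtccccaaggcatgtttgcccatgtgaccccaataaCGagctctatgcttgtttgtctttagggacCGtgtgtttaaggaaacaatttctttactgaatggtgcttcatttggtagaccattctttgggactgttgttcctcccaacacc
4930522L14Rik: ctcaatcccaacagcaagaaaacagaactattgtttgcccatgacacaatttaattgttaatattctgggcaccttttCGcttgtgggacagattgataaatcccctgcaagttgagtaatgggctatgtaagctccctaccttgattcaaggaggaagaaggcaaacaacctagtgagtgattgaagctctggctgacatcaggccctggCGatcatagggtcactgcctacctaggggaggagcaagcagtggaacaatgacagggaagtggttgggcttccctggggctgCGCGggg
LOC108169175: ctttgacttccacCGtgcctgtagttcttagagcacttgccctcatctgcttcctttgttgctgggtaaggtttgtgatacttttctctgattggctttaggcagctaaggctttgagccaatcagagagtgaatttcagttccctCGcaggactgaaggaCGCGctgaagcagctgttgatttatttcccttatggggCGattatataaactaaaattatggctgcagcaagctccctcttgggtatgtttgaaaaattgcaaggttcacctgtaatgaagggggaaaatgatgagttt
The region at chr16:94010493-94011734, over the start of 2410003I16Rik, was lower in KO2 on the average of both states. It averaged 0.515 CPM in KO2 and 1.36 CPM in KO1 unactivated, and 0.216 CPM in KO2 and 0.699 CPM in KO1 activated (mean log2 difference -1.53, adjusted p = 0.00803, edgeR's quasi-likelihood test). In each state by itself it was not called (adjusted p = 0.281 and 0.12). The region at chr5:109795775-109796891, which spans the printed promoter of 4930522L14Rik, was higher in KO2. It averaged 1.31 CPM in KO2 and 0.469 CPM in KO1 unactivated, and 0.992 CPM in KO2 and 0.447 CPM in KO1 activated (log2 difference 1.49, adjusted p = 0.0366, and 1.13, adjusted p = 0.193). The unactivated call was lost in 9 of the 12 fits that leave out 1 knockout library, any unactivated library among them (highest adjusted p 0.198). The region at chr6:136548573-136556092, over the start of LOC108169175 and part of Atf7ip, averaged 3.47 and 4.4 CPM in KO2, against 2.15 and 2.23 CPM in KO1, unactivated and activated, and was called on the average of both states alone (log2 difference 0.83, adjusted p = 0.0432). The printed promoters hold fewer CG than the median promoter, which is a description of these windows only.

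Of 11264 regions tested, 17 were called in unactivated cells (0.151%; 8 higher and 9 lower in KO2) and 19 in activated cells (0.169%; 7 higher and 12 lower). These counts were 42 and 62 by DESeq2 and 7 and 12 without a filter on low counts. Leaving out any 1 of the unactivated knockout libraries gave 7 to 11 unactivated calls, and leaving out replicate 1 or 3 of activated KO2 or of activated KO1 gave 9 to 12 activated calls. All 17 had the same sign in activated cells and 7 (41.2%) were called there. Of the 19, 18 (94.7%) had the same sign in unactivated cells and 7 (36.8%) were called. The difference between the states was called for 0 regions (0.0%) by edgeR's quasi-likelihood test and for 1 by DESeq2. By edgeR 326 were under an unadjusted p of 0.05, a share below 0.05 of the regions tested. The average of both states called 54 regions (0.479%; 21 higher and 33 lower). Counted once each, 56 regions were called in a state or on average, of which 26 lay outside annotated genes, 21 inside 1 gene and 9 at a gene end or over several genes.

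Among called regions outside genes with at least 2 CPM, the highest fold of KO2 over KO1 was on chromosome 16. The region at chr16:55623029-55624340, 28141 bases from the nearest annotated gene Gm23003, held 1.86, 1.95 and 2.51 CPM in unactivated KO2, against 0.0945, 0.207 and 0.0607 CPM in unactivated KO1. Activated, it held 3.15, 4.26 and 2.72 CPM in KO2, against 0.118, 0.212 and 0.371 CPM in KO1. Every KO2 library was above every library of the other 3 lines, where the WT lines reached at most 0.268 CPM. The log2 difference was 4.11 ± 0.46 (adjusted p = 6.48e-05) and 3.83 ± 0.44 (adjusted p = 8.2e-05) by edgeR's quasi-likelihood test.

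A region at the end of Fyb, an adaptor protein of immune cell signalling, and over Gm2245 at chr15:6622379-6626285 held 1.7, 1.87 and 2.21 CPM in unactivated KO2, against 0.191, 0.176 and 0.239 CPM in unactivated KO1. Activated, it held 2.1, 2.23 and 1.5 CPM in KO2, against 0.0303, 0.231 and 0.313 CPM in KO1. The WT lines were again at the level of KO1, at most 0.3 CPM, so the KO2 cultures stood above the other 3 lines (log2 difference 3.24 ± 0.49 and 3.38 ± 0.49; adjusted p = 0.00198 and 0.00121, edgeR's quasi-likelihood test). In the other direction, the region at chr11:3105080-3105979, 18023 bases from Pisd-ps1, held 0.747, 0.75 and 0.795 CPM in unactivated KO2, against 3.32, 3.3 and 3.95 CPM in unactivated KO1. Activated, it held 0.287, 0.366 and 0.242 CPM in KO2, against 2.52, 2.58 and 2.7 CPM in KO1. The log2 difference was -2.2 ± 0.21 (adjusted p = 1.13e-05) and -3.11 ± 0.23 (adjusted p = 2.28e-07). The WT clone averaged 2.38 and 1.69 CPM and parental WT cells 1.36 and 0.863 CPM, so KO2 was below and KO1 above both.

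A clone was taken as outside the WT range where its mean lay above, or below, all WT clone and parental WT libraries of the same state, in both states. By this measure 30 of the 56 called regions had KO2 outside and KO1 within, 10 had KO1 outside and KO2 within, 8 had both within and 8 had both outside. Of the 30, KO2 was above the WT range for 11 and below it for 19. These counts rest on regions chosen for a difference between KO2 and KO1. How often each clone lay outside the WT range over all tested regions was not counted. The counts therefore describe these 56 regions only, and do not show that 1 clone departs more than the other. A region in Nfatc1, the transcription factor NFAT that answers calcium signals, is an example with both clones outside: at chr18:80618168-80620114 it averaged 14.6 and 14.2 CPM in KO2 and 9.64 and 8.0 CPM in KO1, unactivated and activated, against 2.08 to 3.23 CPM in the WT lines (mean log2 difference between the clones 0.71, adjusted p = 0.014, edgeR's quasi-likelihood test).

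Gene values gave fewer calls, of 4485 tested. In unactivated cells edgeR's quasi-likelihood test called 0 (0.0%), with 208 under an unadjusted p of 0.05, a share below 0.05 of those tested. DESeq2 called 2 there, and the fit with the replicate number as a block called 5. In activated cells it called 7 (0.156%), with Exoc4, Espn and Gm21154 higher and Gtpbp4, Notch2, Fads2 and Cracr2a lower in KO2. For 6 of the 7 the sign was the same in unactivated cells. Leaving out replicate 3 of activated KO2 left 0 of these calls in activated cells. The average of both states called 19 (0.424%), 10 higher and 9 lower in KO2. The difference between the states was called for 0 gene values (0.0%) by edgeR and 0 by DESeq2. By edgeR 146 were under an unadjusted p of 0.05, a share below 0.05 of those tested.

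**Figure D3:**
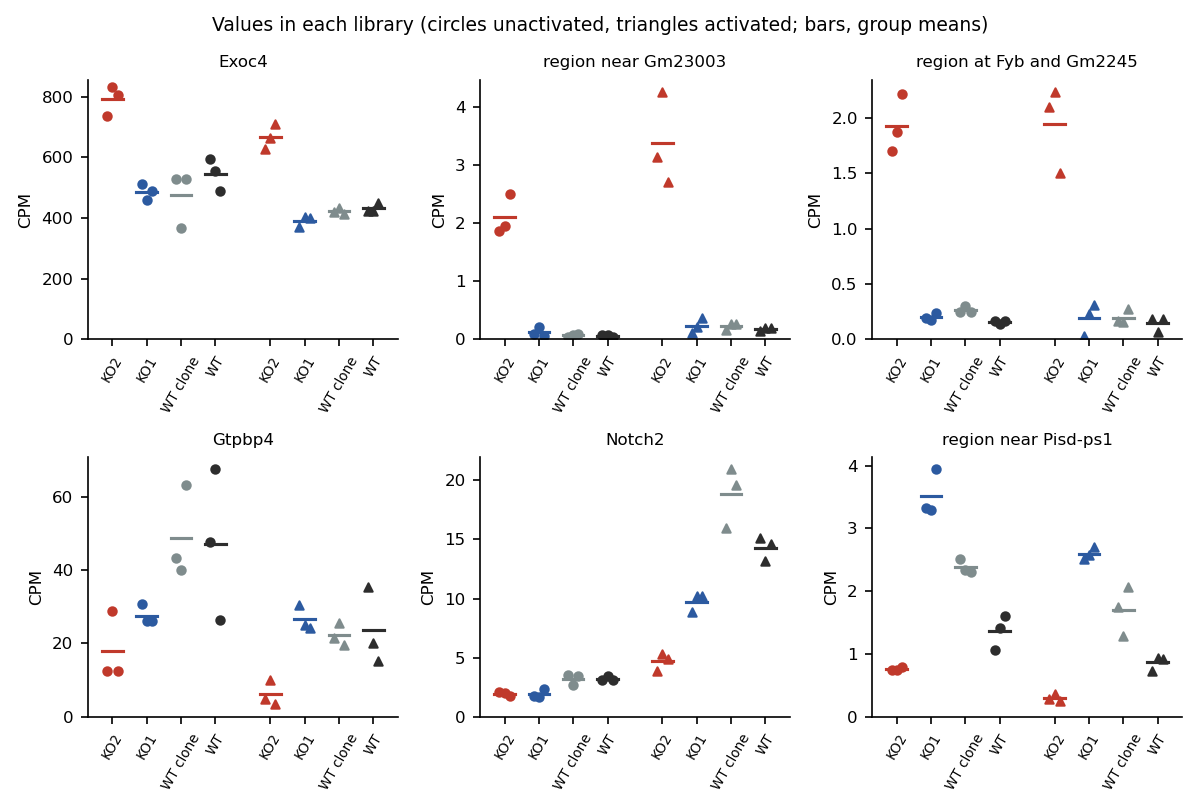
Level in CPM (y axes, from 0) of 6 called genes and regions in each library of KO2, KO1, WT clone and parental WT cells, unactivated (circles, left) and activated (triangles, right), with bars at group means. KO2 lies above the other 3 lines for Exoc4 and for the regions near Gm23003 and at Fyb, and below them for the region near Pisd-ps1.

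Notch2 is a cell surface receptor of the Notch pathway that is needed for marginal zone B cells. In unactivated cells it held 2.08, 2.02 and 1.74 CPM in KO2, against 1.73, 1.7 and 2.33 CPM in KO1, and the clones overlapped (log2 difference 0.02 ± 0.20). In activated cells it held 3.83, 5.26 and 4.91 CPM in KO2, against 8.83, 10.2 and 10.2 CPM in KO1, with every KO2 library below every KO1 library (log2 difference -1.06 ± 0.19, adjusted p = 0.00904, edgeR's quasi-likelihood test). Activated WT clone cells averaged 18.8 ± 2.62 CPM and parental WT cells 14.3 ± 0.965 CPM (SD, n = 3), so both knockout clones were under both WT lines, and KO2 the lower. The change of the clone difference with activation was -1.08 ± 0.27, with an unadjusted p of 0.000555 in edgeR's fit across all genes and an adjusted p of 1.0, and so was not called. Of the 12 Notch2 regions, 1 at chr3:98050087-98050750 carried most of the value, averaging 3.69 CPM in KO2 and 9.05 CPM in KO1 activated. The call was lost without replicate 2 of activated KO1, replicate 1 of activated KO2 or replicate 3 of activated KO2 (highest adjusted p 0.105).

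Gtpbp4, a GTP-binding protein of ribosome biogenesis, was read by 1 region at chr13:8984786-8985335. It held 12.4, 28.8 and 12.4 CPM in unactivated KO2, against 30.9, 26.0 and 26.0 CPM in unactivated KO1, where the clones overlapped through replicate 2 of KO2 (log2 difference -0.63 ± 0.37). In activated cells it held 4.74, 9.97 and 3.55 CPM in KO2, against 30.6, 25 and 24.3 CPM in KO1, a ratio of the means of 0.229 (log2 difference -2.13 ± 0.38, adjusted p = 0.00904, edgeR's quasi-likelihood test). WT clone and parental WT cells averaged 22.3 ± 3.13 and 23.7 ± 10.6 CPM activated, at the level of KO1. Unactivated, they averaged 48.9 ± 12.6 and 47.3 ± 20.6 CPM, above the means of both KO1 (27.6 CPM) and KO2 (17.9 CPM). Parental WT replicate 3, at 26.4 CPM, was within the range of KO1 there. The change of the difference with activation was -1.5 ± 0.52 (unadjusted p = 0.00799 and adjusted p = 1.0 in edgeR's fit). Without replicate 1 of activated KO1, replicate 1 of activated KO2 or replicate 3 of activated KO2 the call was lost (highest adjusted p 0.133).

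Exoc4, a subunit of the exocyst that tethers secretory vesicles to the plasma membrane, was higher in KO2 in both states. It held 737.8, 831.8 and 806.3 CPM in unactivated KO2, against 512.7, 459.1 and 487.7 CPM in unactivated KO1. Activated, it held 628.2, 662.3 and 710.3 CPM in KO2, against 371.2, 401.7 and 398.4 CPM in KO1. The WT clone averaged 476.0 and 422.0 CPM and parental WT cells 546.0 and 431.4 CPM, near KO1. The gene value differed by 0.70 ± 0.14 unactivated (adjusted p = 0.0518, or 0.0496 with the replicate block) and by 0.77 ± 0.14 activated (adjusted p = 0.00904, edgeR's quasi-likelihood test). Almost all of it came from 381 bases at chr6:33746228-33746608, inside the gene (chr6:33249090-33973979), and this region was called in both states (adjusted p = 0.00196 and 0.000652). Whether this stretch shares reads with other loci was not tested, so its assignment to Exoc4 is uncertain. Leaving out any of the 3 activated KO1 libraries or replicate 3 of activated KO2 lost the activated call of the gene value (highest adjusted p 0.133), as did testing without a filter on low counts (adjusted p = 0.164).

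Rnf157, a RING-type ubiquitin ligase, had the same layout in 1 region at chr11:116389113-116391077. The gene value held 760.8, 813.1 and 804.5 CPM in unactivated KO2, against 572.5, 600.4 and 558.7 CPM in unactivated KO1. Activated, it held 851.0, 811.9 and 854.2 CPM in KO2, against 502.6, 569.7 and 523.0 CPM in KO1. It was called on the average of both states alone (log2 difference 0.56 ± 0.12, adjusted p = 0.0185, edgeR's quasi-likelihood test), lost in 8 of the 12 fits that leave out 1 knockout library (highest adjusted p 0.0887), and whether its region shares reads with other loci was not tested. A region over the pseudogene Gm7400 at chr18:4290354-4296385 averaged 48.3 ± 2.74 CPM in KO2 and 27.1 ± 1.08 CPM in KO1 unactivated (SD, n = 3), and 35.5 ± 2.12 and 17.0 ± 1.86 CPM activated, and was called in both states (log2 difference 0.84 and 1.06).

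Among genes of metabolism, Fads2, a fatty acid desaturase, averaged 1.02 ± 0.137 CPM in KO2 and 1.46 ± 0.0373 CPM in KO1 unactivated, and 0.941 ± 0.151 CPM in KO2 and 2.71 ± 0.829 CPM in KO1 activated (SD, n = 3). The activated difference was called (-1.53 ± 0.29, adjusted p = 0.0121, edgeR's quasi-likelihood test), and was lost without replicate 2 of activated KO1, replicate 1 of activated KO2 or replicate 3 of activated KO2 (highest adjusted p 0.213). The WT clone averaged 5.15 and 8.56 CPM and parental WT cells 3.99 and 5.46 CPM, so Fads2 was lower in both knockout clones than in both WT lines and lowest in KO2. Wwox, an oxidoreductase at a common fragile site, averaged 3.49 ± 0.321 CPM in KO2 and 1.69 ± 0.156 CPM in KO1 unactivated, and 3.66 ± 0.371 CPM in KO2 and 2.21 ± 0.225 CPM in KO1 activated. It was called on the average of both states (log2 difference 0.88 ± 0.14, adjusted p = 0.00179), and the WT lines, at 3.07 to 4.22 CPM, lay near KO2. KO1 had the lowest mean of the 4 lines in both states. Of the 29 Wwox regions, 1 of 608 bases at chr8:114827761-114828368 carried most of the unactivated difference, averaging 1.77 CPM in KO2 and 0.285 CPM in KO1 unactivated, and 1.18 and 0.437 CPM activated.

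At low levels, Cracr2a, a regulator of calcium release-activated channels, averaged 0.0433 CPM in KO2 and 0.282 CPM in KO1 unactivated, and 0.0681 CPM in KO2 and 0.53 CPM in KO1 activated, while the WT lines averaged 0.351 to 0.622 CPM. Its region at chr6:127629883-127630831 held 0 estimated counts over the 3 unactivated KO2 libraries and 2 over the 3 activated ones, against 17 and 32 in KO1, and was called in both states (adjusted p = 0.00398 and 0.0113, edgeR's quasi-likelihood test), the activated one lost without replicate 1 of activated KO1 (adjusted p = 0.0549). Ddr2, a collagen receptor, averaged 0.102 and 0.154 CPM in KO2, against 0.453 and 0.595 CPM in KO1, and Enah, which extends actin filaments, 0.104 and 0.227 CPM against 0.422 and 0.557 CPM. Both were called on the average of the states (adjusted p = 0.00224 and 0.0185), and the call of Enah was lost in 9 of the 12 fits that leave out 1 knockout library (highest adjusted p 0.0823). Espn, an actin-bundling protein, averaged 1.35 ± 0.0782 CPM in KO2 and 0.494 ± 0.0511 CPM in KO1 unactivated, and 0.793 ± 0.214 and 0.244 ± 0.155 CPM activated (log2 difference 1.46, adjusted p = 0.0518, and 1.73, adjusted p = 0.0171). The activated call of Espn was lost without replicate 1 or 2 of activated KO1 or replicate 1 or 3 of activated KO2 (highest adjusted p 0.234), and on the average of the states it was kept in each of these fits. Zmynd8 and the Igh targets were to be named whatever their values. Exoc4, Gtpbp4, Notch2, Fads2 and the regions near Gm23003 and Pisd-ps1 were named by a rule that takes called items, so their values entered the choice. The other genes and regions named were chosen after their values were seen.

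Other called regions can be given by their nearest genes. A region over the lambda light chain genes Iglc1, Iglc3 and Iglj1 at chr16:19059420-19065940 held 15.5, 12.2 and 12.4 CPM in unactivated KO2, against 30.5, 23.3 and 22.3 CPM in unactivated KO1 (log2 difference -0.92 ± 0.19, adjusted p = 0.0306, edgeR's quasi-likelihood test, lost without replicate 1 or 2 of unactivated KO1 or any unactivated KO2 library, with a highest adjusted p of 0.209). Activated, it held 12.6, 8.06 and 10.8 CPM in KO2, against 14.9, 12.9 and 14.3 CPM in KO1 (-0.43, adjusted p = 0.748). WT clone and parental WT cells held more, with means of 70.0 and 109.1 CPM unactivated and 76.3 and 102.9 CPM activated. A region in Ptpn22, a phosphatase that restrains antigen receptor signalling, averaged 0.188 CPM in KO2 and 0.565 CPM in KO1 unactivated (log2 difference -1.57, adjusted p = 0.0289, lost without any unactivated KO1 library or replicate 1 or 3 of unactivated KO2, with a highest adjusted p of 0.203). A region 5067 bases from Plk2, a kinase of the cell cycle, averaged 37.5 and 25 CPM in KO2, against 57.8 and 41.8 CPM in KO1 (average of the states, adjusted p = 0.0186).

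Gene groups were compared through 22 lists, 17 of function and 5 of cell type, whose 185 tested genes read RNA from parts of genes. In unactivated cells 0 list genes were called by edgeR's quasi-likelihood test and 6 were under an unadjusted p of 0.05. In activated cells 3 were called, Gtpbp4 in the list of MYC and ribosome biogenesis, Notch2 in the Notch pathway and Fads2 in lipid and cholesterol metabolism, and 19 were under an unadjusted p of 0.05. None of these 3 lists had a second member called. On the average of both states Gtpbp4 and Fads2 were called. Over all 4485 gene values 0.0% were called unactivated and 0.156% activated, and 208 and 266 were under an unadjusted p of 0.05. Whether the list genes depart from this was not tested. Of the 27 genes of the B cell identity list 18 were tested and 0 called in either state, with median log2 differences of 0.17 and -0.01, against 0.07 and 0.05 over all gene values. Blk, a Src-family kinase of antigen receptor signalling, had a log2 difference of 0.94 in activated cells (adjusted p = 0.155), and Cd9, a tetraspanin, of -1.81 in unactivated cells (adjusted p = 0.218). Prdm1, the regulator of plasma cells, averaged 0.924 ± 0.194 and 0.624 ± 0.253 CPM in KO2, against 1.01 ± 0.0802 and 0.512 ± 0.077 CPM in KO1, and the clones overlapped in both states.

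Most of a stretch of chromosome 15 was higher in KO2 than in KO1, by a small factor. This stretch, from 55 to 65 Mb, was chosen after its values were seen and is given as a description without a test. Of its 81 tested regions 68 (84.0%) were higher in KO2 unactivated and 63 (77.8%) activated, against 56.7% and 55.4% of all regions. The median log2 difference was 0.56 unactivated and 0.35 activated, 1.48-fold and 1.28-fold, against 0.07 and 0.05 over all regions. By itself 0 of these regions was called in either state by edgeR (0.151% and 0.169% of all regions were), and 1 on the average of both. Between WT clone and parental WT cells the median was -0.33 unactivated and -0.14 activated.

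In each library, the median over these regions of their level relative to the mean of all 24 libraries, divided by the same median over all regions, was 1.36, 1.33 and 1.35 in unactivated KO2, against 0.99, 0.97 and 0.96 in unactivated KO1. The WT clone had 0.95, 0.93 and 0.80, and parental WT cells 1.07, 1.10 and 1.16, so unactivated KO2 stood above the other 3 lines without overlap. In activated cells it was 0.92, 1.03 and 1.12 in KO2, against 0.82, 0.84 and 0.95 in KO1. The ranges of the activated clones overlapped, with KO2 the higher in each of the 3 same-numbered pairs. The WT lines ranged over 0.78 to 1.08 there. Of 308 windows of 5 Mb with at least 15 tested regions, the windows from 55 to 60 Mb (29 regions, medians 0.60 and 0.50) and from 60 to 65 Mb (52 regions, medians 0.55 and 0.26) had the highest and second highest average over both states. The 5th and 95th percentiles of the windows were -0.0732 and 0.21. At the other end was the window from 90 to 95 Mb of chromosome 16, with 48 regions and medians of -0.29 and -0.25. Among regions with a mean of at least 1 CPM the chromosome 15 medians were 0.36 and 0.24.

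**Figure D4:**
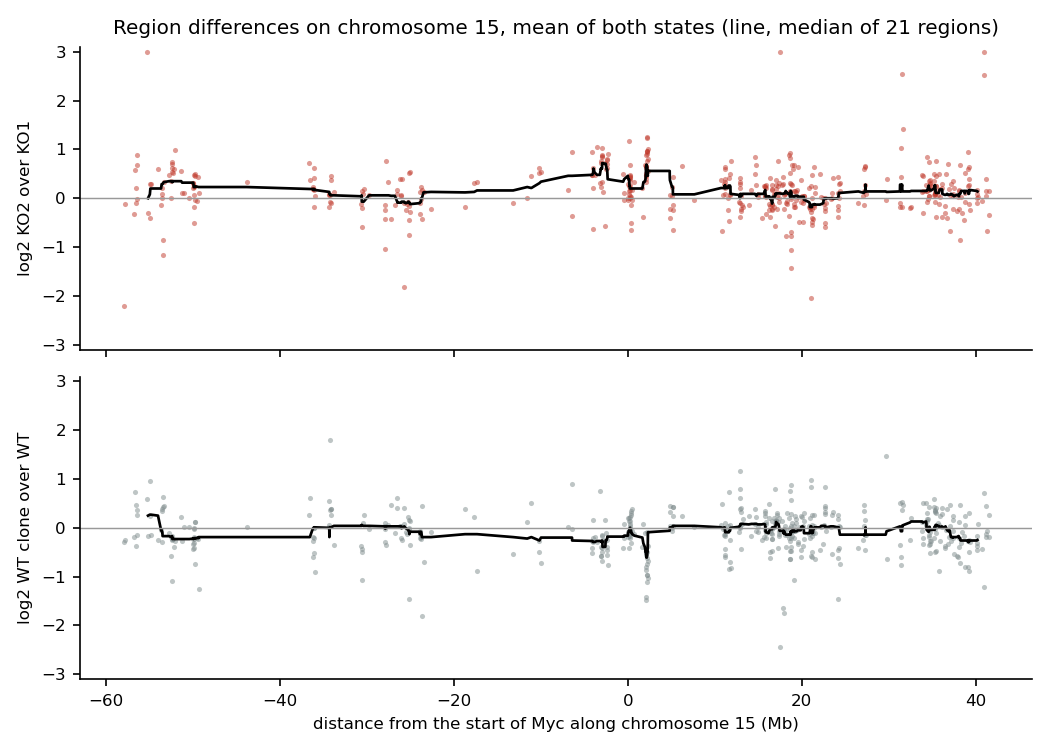
Log2 difference of each tested region on chromosome 15, averaged over both states, against its distance from the start of Myc in Mb, for KO2 over KO1 (top) and WT clone over parental WT (bottom), with values beyond 3 drawn at 3 and a running median as a line. The KO2 over KO1 line rises near Myc, where the stretch from 55 to 65 Mb has medians of 0.56 unactivated and 0.35 activated.

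The stretch holds 17 tested gene values, of which 16 were higher in KO2 unactivated and 14 activated. Their medians were 0.61 and 0.66, against 0.07 and 0.05 over all gene values. They are sums of regions of a stretch chosen for its values, so they add no separate support. Asap1, a GTPase-activating protein that acts on cell shape and movement, held 8.34, 6.54 and 8.04 CPM in unactivated KO2, against 3.94, 3.69 and 3.95 CPM in unactivated KO1. Activated, it held 5.89, 5.72 and 7.9 CPM in KO2, against 3.6, 3.56 and 4.45 CPM in KO1. The clones did not overlap in either state (average log2 difference 0.87 ± 0.19, adjusted p = 0.0365, edgeR's quasi-likelihood test, lost in all 12 fits that leave out 1 knockout library). Fam91a1, a protein of vesicle tethering, averaged 1.28 ± 0.422 CPM in KO2 and 0.618 ± 0.102 CPM in KO1 unactivated, and 1.49 ± 0.32 and 0.711 ± 0.202 CPM activated (average 1.05 ± 0.20, adjusted p = 0.0097, and 0.051 without replicate 3 of unactivated KO2). Nsmce2, a SUMO ligase of the SMC5/6 complex, averaged 5.28 ± 0.803 CPM in KO2 and 3.11 ± 0.492 CPM in KO1 unactivated (average over the states 0.73 ± 0.17, adjusted p = 0.0541, not called). Myc, the growth regulator in the stretch, averaged 24.1 ± 3.5 CPM in KO2 and 24.5 ± 7.74 CPM in KO1 unactivated, and 10.4 ± 0.811 and 10.3 ± 0.727 CPM activated, with log2 differences of -0.02 ± 0.25 and 0.02 ± 0.25. Pvt1, the long non-coding RNA beside it, averaged 24.1 ± 2.33 CPM in KO2 and 16.9 ± 0.608 CPM in KO1 unactivated, and 23 ± 3.69 and 20.8 ± 4.88 CPM activated (0.51 ± 0.25 and 0.15 ± 0.25).

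At the Igh 3′ regulatory region, a known binding site of ZMYND8 in B cells, the 2 knockout clones overlapped in both states. Its summed level, over 5 regions between chr12:113215821 and chr12:113254334 and the elements hs3a, hs12, hs3b and hs4, was 31.4, 23.3 and 24.6 CPM in unactivated KO2, against 30.6, 21.8 and 24.2 CPM in unactivated KO1. Activated, it was 43.1, 28.4 and 26.2 CPM in KO2, against 40.7, 27.5 and 24.4 CPM in KO1. The log2 difference was 0.05 unactivated (p = 0.7) and 0.08 activated (p = 0.6) by a two-sided exact permutation test, whose smallest possible p with 3 against 3 libraries is 0.1. This test does not pair same-numbered libraries, so the spread between replicate numbers is part of what it measures against. The WT clone averaged 4.84 and 7.65 CPM and parental WT cells 6.5 and 6.58 CPM. The lowest knockout library was 2.8 times the highest WT library unactivated and 2.76 times activated, so both clones lay above both WT lines. Replicate 1 was the highest library of each clone in each state, and KO2 was the higher by a small amount in each of the 3 same-numbered pairs of both states.

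**Figure D5:**
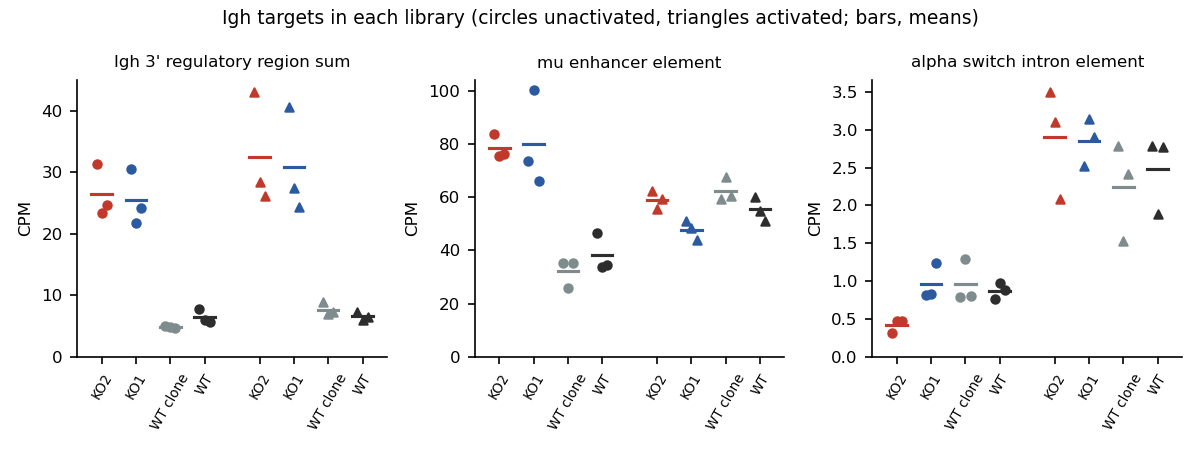
Level in CPM (y axes, from 0) of the Igh 3′ regulatory region sum, the mu enhancer element and the alpha switch intron element in each library of KO2, KO1, WT clone and parental WT cells, unactivated (circles, left) and activated (triangles, right), with bars at group means. The knockout clones overlap in the regulatory region sum, at 21.8 to 43.1 CPM, above both WT lines.

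None of the other Igh targets was called between the clones in a state. For some the 3 libraries of one clone lay apart from those of the other, which random order alone gives with a probability of 0.1. The share of all targets that lay apart was not counted, so these cases are descriptions only. The mu enhancer element averaged 78.6 CPM in KO2 and 80.1 CPM in KO1 unactivated, and 59.2 CPM in KO2 and 47.8 CPM in KO1 activated (log2 difference -0.03 ± 0.15 and 0.31 ± 0.15; adjusted p = 0.829 for the second, edgeR's quasi-likelihood test). For this element, a region over Ighj3, Ighj4 and Ighm, and Igha, every activated KO2 library was above every activated KO1 library, while the unactivated clones overlapped. The region over Ighj3, Ighj4 and Ighm, at chr12:113418607-113429316, averaged 369.3 CPM in KO2 and 393.4 CPM in KO1 unactivated, and 289.0 and 256.1 CPM activated. Igha, the constant gene of IgA, averaged 8.26 ± 0.533 CPM in KO2 and 8.65 ± 0.0503 CPM in KO1 unactivated, and 9.57 ± 0.245 and 8.74 ± 0.537 CPM activated. RNA of the alpha switch intron, which is transcribed before switching to IgA, held 0.311, 0.469 and 0.477 CPM in unactivated KO2, against 0.814, 0.823 and 1.24 CPM in unactivated KO1. The clones did not overlap, but the difference was not called (log2 difference -1.19 ± 0.30, adjusted p = 0.131). Activated, it held 3.5, 3.11 and 2.09 CPM in KO2, against 2.52, 3.14 and 2.91 CPM in KO1, and the clones overlapped (0.02 ± 0.28). A region 1273 bases from Ighg1, at chr12:113331796-113341015, held 0.924, 1.31 and 0.212 CPM in activated KO2, against 0.145, 0.155 and 0.0613 CPM in activated KO1. There too the activated clones did not overlap, and the difference was not called (log2 difference 2.72 ± 0.86, adjusted p = 0.374). The hs12 element and the mu switch intron were at 0 in all libraries.

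The gene values of the knockout clones were last set against the pair of lines with ZMYND8. Between WT clone and parental WT cells 6 gene values were called unactivated (0.134%) and 4 activated (0.0892%). The test of whether the KO2 minus KO1 difference departs from the WT clone minus parental WT difference called 6 gene values unactivated (0.134%; 5 higher and 1 lower) and 8 activated (0.178%; 4 higher and 4 lower). The unactivated count was 1 to 3 without any 1 of the unactivated knockout libraries, and 2 without replicate 1 of activated KO2 or of activated KO1. The activated count was 17 with DESeq2, 17 without the 3 unactivated libraries that stand apart and 26 without a filter on low counts. Nothing matches KO2 to the WT clone, so the sign of the difference that is subtracted is a choice, and which genes are called depends on it. Ddr2 was called unactivated (-3.54, adjusted p = 0.027) and activated (-3.09, adjusted p = 0.0076) by edgeR's quasi-likelihood test. Its unactivated KO2 over KO1 difference was -2.05. The WT clone over parental WT difference was 1.49, with means of 0.682 and 0.243 CPM in those lines.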

How the data were processed

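RNA-seq libraries from 4 CH12 lines in 2 states were analysed, 24 in all, and the 9 other samples of the series were not analysed here. The authors deposited estimated counts per target from kallisto (0.43.0) on GRCm38.p5, per the submitters' processing notes, which also name DESeq2. The deposited TPM values were not used. Estimated counts were rounded to whole numbers and fitted with edgeR 4.0.16 (limma 3.58.1, R 4.3.3) after TMM scaling and filterByExpr by group, with 8 group means over the 24 libraries. Benjamini-Hochberg adjustment was over all transcripts of the fit for transcripts and over all its targets for regions and Igh elements. Gene values were adjusted over all gene values. The fit across all groups shares 1 estimate of the spread. Regions were placed in RefSeq genes (GRCm38.p6), leaving out 12 locus-wide entries. The files used here hold no table that pairs transcripts with genes, so gene values are sums over regions inside 1 gene. CPM are scaled to the effective size of each library, which is its total multiplied by its TMM factor.

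Genes named by rule were, per state, the 10 highest and 10 lowest called gene values with at least 5 CPM, without overlap and not Gm or Rik named, and called list members, with Zmynd8 and Igh always. Regions outside genes needed 2 CPM. The members and lists were chosen with earlier results of these data known. Targets with few counts are limited by counting noise, and each group has 3 libraries. Same-numbered KO2 and KO1 libraries deviated together in activated cells (r = 0.11, 0.13 and 0.16 over 23867 targets). In unactivated cells r was 0.16 for replicate 1 and 0.09 for replicate 3, against -0.15 and -0.19 between replicates 1 and 3. It was -0.09 for replicate 2, whose KO1 library stood apart. The main fit has no block, so what same-numbered libraries share stays in its spread. Alternatives were relative log expression scaling, no filter on low counts, DESeq2 1.42.0, the knockout libraries alone, a replicate block and leaving out each library. The average of both states and the fit without 3 libraries that stand apart were added after the data were examined. The scripts were tested on simulated counts.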

Additional observations from a re-analysis of the deposited data

Results flagged for a closer look

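For 4 transcripts the difference between the clones itself changed with activation (edgeR's quasi-likelihood test of the change, adjusted p under 0.05 over all transcripts). The first averaged 62.4 CPM in KO2 and 70.9 CPM in KO1 unactivated, and 67.7 CPM in KO2 and 36.2 CPM in KO1 activated, a change of 1.09 in the log2 difference (adjusted p = 0.0262, lost in 8 of the 12 fits without 1 knockout library and with the replicate block). The second averaged 2.31 CPM in KO2 and 90.8 CPM in KO1 unactivated, and 12.4 CPM in KO2 and 165 CPM in KO1 activated, a change of 1.55 (adjusted p = 0.00921, lost without replicate 1 of unactivated KO2). Its level in KO2 was far under that in KO1 in both states. The third averaged 0.471 CPM in KO2 and 0.00246 CPM in KO1 unactivated, and 0.932 CPM in KO2 and 0.961 CPM in KO1 activated, a change of -6.95 (adjusted p = 7.69e-05). Its unactivated value in KO1 is under 1 estimated count in any library, so the size of that change depends on the fit. The fourth averaged 0.849 CPM in KO2 and 5.81 CPM in KO1 unactivated, and 11.8 CPM in KO2 and 20.2 CPM in KO1 activated, a change of 1.98 (adjusted p = 0.000922).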

How the results depend on the processing

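No called value changed its direction under the alternatives run. For the genes, regions and transcripts named or called, leaving out 1 knockout library kept 2117 of 2364 outcomes, with 235 calls lost and 12 gained, and relative log expression scaling kept 197 of 199. Leaving out 1 knockout library, transcripts called ranged over 161 to 229 unactivated, 161 to 267 activated, 2 to 10 for the difference between states and 450 to 534 on the average. Regions ranged over 7 to 16, 9 to 18, 0 to 0 and 38 to 49, and gene values over 0 to 1, 0 to 8, 0 to 0 and 11 to 18. For the WT lines the ranges were 301 to 336 and 272 to 310 transcripts and 5 to 6 and 3 to 4 gene values, and for the knockout difference minus the WT difference 1 to 7 and 6 to 10 gene values. Fewer libraries are in these fits.

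DESeq2 called 642 transcripts unactivated, 762 activated, 168 for the difference and 1163 on the average, 42, 62, 1 and 106 regions, 2 gene values unactivated, 925 and 880 transcripts between the WT lines and 17 gene values for the activated knockout minus WT difference. Without a filter on low counts 7 regions were called unactivated and 12 activated, and 15, 17, 7 and 32 gene values unactivated, activated, for the difference and on the average. The WT lines then had 12 and 20 gene values and 186 activated transcripts, and the knockout minus WT difference 10 and 26 gene values. With the knockout libraries alone 12 regions were called activated, 7 transcripts for the difference, and 7 gene values unactivated and 34 on the average. Without the 3 unactivated libraries that stand apart 1 gene value was called unactivated, 13 activated and 17 for the activated knockout minus WT difference, 7 transcripts for the difference between states, and between the WT lines 3 gene values unactivated and 502 transcripts activated. The cause was not tested. With the replicate block 5 gene values were called unactivated, and no other count of calls moved by over 1.5 times. Of regions called in both states, 5 stayed called in both under every alternative run. On chromosome 15, 55 to 65 Mb, the median moved to 0.36 unactivated among regions of at least 1 CPM. Transcripts and regions under about 1 CPM rest on few counts.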
